A study of Mus musculus with 3 samples.

Results

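The erythroid cells of GBM-bearing mouse brain are described here, in 3 droplet scRNA-seq libraries. They were chosen by their measured globin content: a cell was kept when *Hba-a1*, *Hba-a2*, *Hbb-bs* and *Hbb-bt*, the adult alpha and beta globin genes, together made up at least 20% of its unique molecular identifiers (UMIs, which count distinct captured RNA molecules). Of 6947 barcodes in the files, 4269 passed the filters on detected genes, mitochondrial UMIs and barcodes shared between libraries, and 78 of these 4269 cells were erythroid by this rule. The other 4191 passing cells are called other cells. Because the 4 globins selected the cells, their high level is not a finding, and all other transcripts are given per 10000 UMIs left after the 4 globins were taken out. That quantity is called the level below.

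The study placed brain tumor-initiating cells carrying Nf1 and Trp53 mutations into the brains of syngeneic mice. All animals were female wild-type C57BL/6 mice, 6 to 8 weeks old at sourcing. The vehicle control mice received saline and the niacin mice received 100 mg/kg niacin daily by intraperitoneal injection from day 7. Tissue from 2 mm around the injection site was taken at 4 weeks, the labels give 4 pooled brains per library, myelin was removed on a Percoll gradient and live cells were sorted with a dead-cell dye. One library, vehicle control replicate 2, came from vehicle mice, and niacin replicates 1 and 2 came from niacin mice. Both groups carried tumors, so no library shows tumor-free brain, and pooled animals give no spread between mice. The labels also count 5 vehicle and 10 niacin mice, so the number of mice behind each library is unclear. With 1 control library, niacin was not tested against vehicle, and every interval given for a single library is a 95% interval that covers counting error only.

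Red blood cells form in bone marrow and spleen, where erythroblasts fill with hemoglobin, lose their nucleus and enter blood as reticulocytes. A reticulocyte still holds RNA, ribosomes and mitochondria and clears them while it matures. Hemoglobin pairs alpha and beta globin chains around heme, whose first synthetic step in red cells is run by ALAS2, and brain tissue contains such cells only within its blood.

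The DNA just upstream of the 4 globin genes and of *Alas2* is shown because the former chose the cells and the latter served as the check on them. Each line gives the 120 bases before the RefSeq start on GRCm38.p6, with matches on either strand to AGATAA, the core of a GATA factor site, and to CCACCC in capitals.
Hba-a1, chr11:32283552-32283671, plus strand: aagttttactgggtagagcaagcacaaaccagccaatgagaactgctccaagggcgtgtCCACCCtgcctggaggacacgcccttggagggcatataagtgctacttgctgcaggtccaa
Hba-a2, chr11:32296372-32296491, plus strand: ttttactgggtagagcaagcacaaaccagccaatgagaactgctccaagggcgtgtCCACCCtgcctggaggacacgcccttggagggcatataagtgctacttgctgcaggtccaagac
Hbb-bs, chr7:103827929-103828048, minus strand: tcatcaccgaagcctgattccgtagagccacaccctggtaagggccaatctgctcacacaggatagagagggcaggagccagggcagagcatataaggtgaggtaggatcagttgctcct
Hbb-bt, chr7:103813924-103814043, minus strand: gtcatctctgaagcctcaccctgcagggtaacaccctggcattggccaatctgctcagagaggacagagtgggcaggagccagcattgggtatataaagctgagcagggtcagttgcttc
Alas2, chrX:150547297-150547416, plus strand: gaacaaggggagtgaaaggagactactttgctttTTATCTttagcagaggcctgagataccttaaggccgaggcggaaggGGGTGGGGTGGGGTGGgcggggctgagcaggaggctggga

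The *Alas2* window held 1 AGATAA and 3 overlapping CCACCC matches, all on the opposite strand, and each alpha globin window held 1 CCACCC. Over the same 120 bases, 4.36% of 32851 RefSeq promoters held AGATAA, 16.5% held CCACCC and 21.3% held CCAAT, which was present in all 4 globin windows. The beta globin windows held neither of the first 2 motifs. A match is a description of letters and not a bound site. GENCODE gene models of *Hba-a1*, *Hbb-bs*, *Hbb-bt* and *Alas2* begin further upstream than the RefSeq starts used.

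Erythroid cells were rare in the vehicle library. They numbered 4 of 1264 passing cells in vehicle control replicate 2 (0.317%, exact binomial interval 0.0863 to 0.808), 37 of 1411 in niacin replicate 1 (2.62%, 1.85 to 3.60) and 37 of 1594 in niacin replicate 2 (2.32%, 1.64 to 3.19). The intervals of the niacin libraries overlapped each other and lay above that of the vehicle library. How much blood remained in each tissue was not measured, and with 1 vehicle library the treatment and the preparation cannot be told apart.

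**Figure D1:**
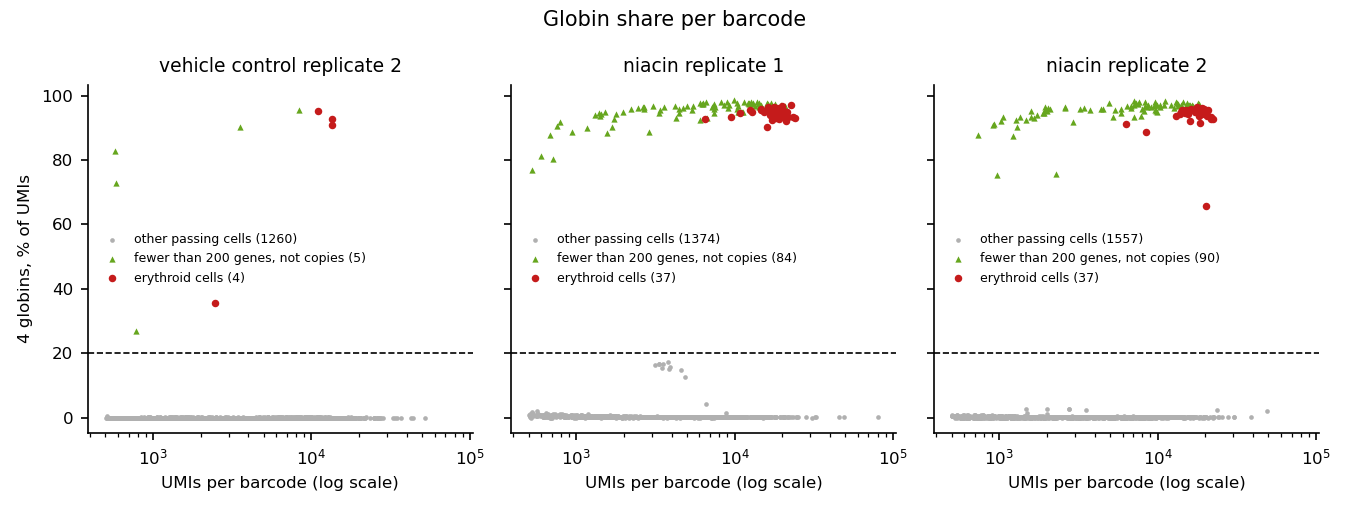
Share of UMIs from the 4 globins (y axis, %) against UMIs per barcode (x axis, log scale) in each library, with erythroid cells in red, other passing cells in gray, globin-rich barcodes with fewer than 200 detected genes in green and the 20% threshold dashed. Of the 78 erythroid cells, 76 lay at 88.8% or higher, and 10 other cells of niacin replicate 1 formed a group between 12.5% and 17.3%.

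Nearly all members sat far above the threshold. Just inside it were 1 vehicle cell at 35.5% globin and 1 cell of niacin replicate 2 at 65.8%, followed by members at 88.8% and 90.2%. Just outside it were 10 cells of niacin replicate 1 at 12.5% to 17.3%, with 3131 to 4880 UMIs. Each of those 10 cells held 11 or 12 of the 12 microglia markers, and together they had only 2 *Alas2* UMIs, and the next cell below them was at 4.18%.

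The 2 members of lowest globin share also stood apart in their other RNA. The vehicle cell had 2452 UMIs, 905 detected genes, 11 of 12 microglia markers and no *Alas2* UMI. The niacin replicate 2 cell had 20085 UMIs, 2872 genes, all 12 microglia markers and 30 *Alas2* UMIs, and it alone supplied 6865 of the 40148 non-globin UMIs of its library's members. These are called the 2 mixed members, and the mixed vehicle cell supplied 1581 of the 4297 non-globin UMIs of the vehicle members. A value in square brackets after a level is the level without the mixed member of that library. The 76 remaining members had 6334 to 24136 UMIs (median 17885), a median of 246.5 detected genes and a globin share of 88.8% to 97.1% (median 94.8%).

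Most member barcodes also appeared in another library. This held for 72 of the 78, each with 15.2 to 29.7 times the UMIs of its copy (median 20.3), and all 72 copies were themselves at 20% globin or more. The selection kept the large copy only, and no barcode was kept in both libraries. Dropping every shared barcode left 6 erythroid cells.

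The label erythroid was checked against *Alas2*, the heme synthesis marker that the rule did not use. *Alas2* had a level of 195 [309], 252 and 237 [277] in vehicle control replicate 2, niacin replicate 1 and niacin replicate 2, the order used for all values by library. The vehicle level was thus the lowest with the mixed members and the highest without them. In other cells the same levels were 0.00143, 0.0134 and 0.0133. After each cell was thinned to 500 non-globin UMIs, *Alas2* was detected in 36 of 36 and 37 of 37 members of niacin replicates 1 and 2, against 1 of 1373 and 0 of 1555 other cells, the latter allowing a share of up to 0.193%. Before thinning it was present in 37 of 37 members of each niacin library and in 0.728% and 0.321% of other cells, whose median depth was 4932 and 5059 non-globin UMIs against 904 and 851 in members. In the vehicle library 3 of 4 members carried it, and the exception was the mixed member.

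Globin UMIs were few per other cell, though most other cells of the niacin libraries had some. The 4 globins made up 0.00224%, 0.166% and 0.0707% of the UMIs of other cells in the 3 libraries. At least 1 globin UMI was present in 143 of 1260, 1349 of 1374 and 1353 of 1557 other cells, with medians of 0, 4 and 2 per cell. The share in niacin replicate 1 includes the 10 cells at 12.5% to 17.3%.

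Alpha globin supplied fewer UMIs than beta globin in the erythroid cells of every library. The alpha share of the 4 globins was 43.2%, 41.6% and 39.6%, a mean of 41.5% ± 1.81 (SD, n = 3). Without the 2 mixed members the mean was 41.4% ± 1.63. *Hba-a1* took 55.8% ± 0.574 (SD, n = 3) of the alpha UMIs. The *Hba-a1* and *Hba-a2* transcripts differ at 1 of 538 aligned bases and at none of 84 aligned within the last 100 bases. The division of UMIs between them is therefore uncertain. How reads that match both genes were counted was not examined, so the alpha share is one of counted UMIs and may differ from that of RNA.

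The adult beta genes divided in nearly the same way in each library. *Hbb-bt*, the neighbor of *Hbb-bs* on chromosome 7, made up 20.9%, 20.5% and 21.6% of adult beta UMIs, a mean of 21.0% ± 0.562 (SD, n = 3). The last 100 bases of these transcripts differ at 29 of 97 aligned positions, but their coding parts differ at only 1 of 444. Where along the transcripts the reads fell was not examined, so how fully the 2 genes were told apart is uncertain. Among the 76 members without mixed cells the share ran from 12.6% to 28.7% with a median of 20.9%. The mixed vehicle cell was at 1.70% and the mixed niacin replicate 2 cell at 15.3%.

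In the niacin libraries, barcodes that met the globin threshold but not the gene minimum had a lower summed *Hbb-bt* share than members. Leaving out copies, 179 such barcodes had fewer than 200 genes, 102 of them with at least 100. In niacin replicates 1 and 2 the summed *Hbb-bt* share was 17.6% and 17.5% in those with at least 100 genes, and 6.26% and 7.09% with fewer than 100 genes. The medians of barcodes with at least 100 genes were 17.4% and 18.6%, against 20.6% and 21.8% in members. In the vehicle library the 4 barcodes with at least 100 genes had a higher summed share than its members, 25.4% against 20.9%. The medians of these barcodes and of the vehicle members were nearly equal, 19.5% and 19.4%. Over all libraries, 60 of the 77 barcodes with fewer than 100 genes were under 5%, 7 lay between 5% and 10%, and 10 were at 10% or more. Of the 102 with at least 100 genes, 88 were at 10% or more, and of the 78 members 77 were.

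**Figure D2:**
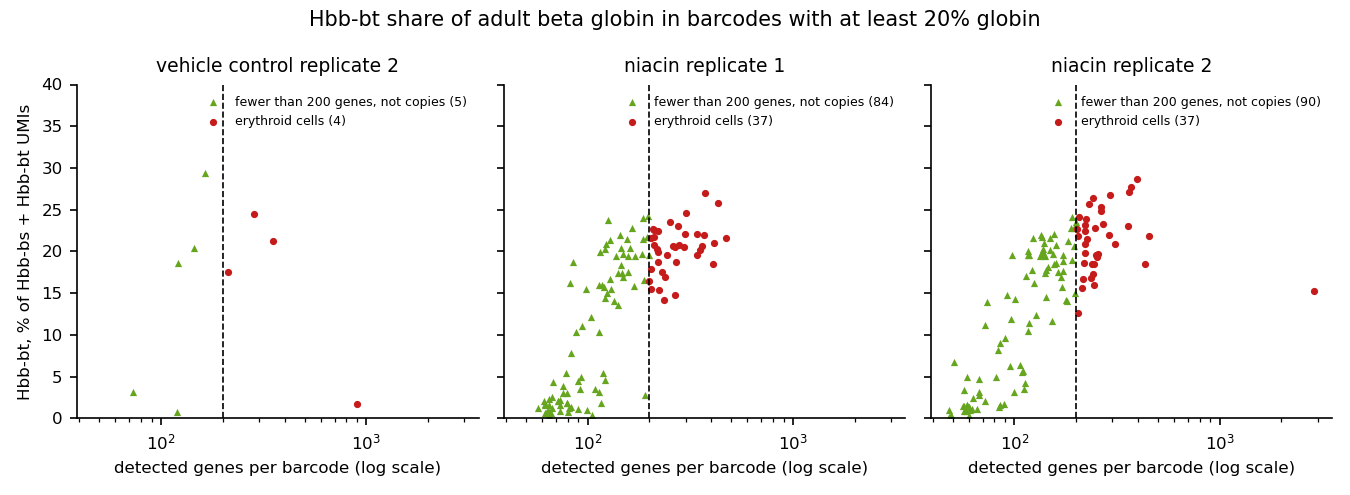
*Hbb-bt* as a percentage of *Hbb-bs* plus *Hbb-bt* UMIs (y axis) against detected genes (x axis, log scale) for barcodes with at least 20% globin, copies left out, with the gene minimum of 200 dashed. Erythroid cells (red) lay mostly near 21%, while barcodes with few genes (green) included a group under 5%.

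Globins of other developmental stages were absent. The embryonic genes *Hba-x*, *Hbb-y*, *Hbb-bh1* and *Hbb-bh2* had no UMI in erythroid cells, where a count of 0 allows a level of up to 0.376. The theta globin genes *Hbq1a* and *Hbq1b* had 32 and 61 UMIs in erythroid cells and none in other cells. They are closely related copies, so the division between them is uncertain.

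Non-globin RNA of erythroid cells was concentrated in few genes. Levels of a 3′ assay count transcript ends and were compared between genes without division by length. The 10 most abundant non-globin genes held 27.4% of non-globin UMIs in erythroid cells, against 14.0% for the 10 most abundant of other cells. Among the leading genes were *Gm42418*, a model overlapping ribosomal RNA (3261 UMIs over the 3 libraries), the polyubiquitin gene *Ubb* (3096), *Bpgm* (3047), *Gpx1* (2247), *Mkrn1* (2160), *Alas2* (1928), *Sec61g* (1603), *Ftl1* (1590) and *Oaz1* (1281).

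The planned fit of all 3 libraries with TMM was not run, since the vehicle library held fewer than 5 erythroid cells. In its place, chosen after seeing the data, summed counts of erythroid and other cells were compared within niacin replicates 1 and 2. The test was edgeR's quasi-likelihood test with library totals. Fits that include the vehicle library, with library totals, were run as alternatives only. At an adjusted p under 0.05, 225 of 11474 genes were higher in erythroid cells (1.96%) and 246 were lower (2.14%). Without the 2 mixed members, 284 were higher (2.48%) and 844 lower (7.38%). With TMM, DESeq2 size factors or DESeq2 in place of library totals, the higher and lower calls numbered 244 and 108, 248 and 94, and 348 and 154. These scalings raised the log2 differences of the 1282 genes with more than 3 erythroid UMIs by a median of 0.51 to 0.57. Keeping the 4 globins in the total lowered them by a median of 4.09, which left 78 of 11532 tested genes higher and 8844 lower. Most genes were thus lower under this divisor, and the list counts given below with globins kept in the total are to be read against that. The vehicle library with niacin replicate 2 alone gave 145 and 13 calls, the vehicle library with niacin replicate 1 alone 77 and 5, and dropping every shared barcode 57 and 0, with 11 genes lower at an unadjusted p under 0.05. This is the contrast that chose the cells, so the calls describe them and are not evidence of what they are. Of the tested genes, 10192 had at most 3 UMIs in erythroid cells of the niacin libraries, and a gene that was not called may still differ. The median log2 difference over all tested genes, 0.77 with those genes set to 3 UMIs, therefore reflects the detection limit.

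Genes of heme synthesis were high, led by the first and last enzymes of the pathway. Of the 8 enzymes, 5 were called higher and none lower per non-globin UMI, and 2 higher and 3 lower when globins were kept in the total. After *Alas2*, *Fech*, which inserts iron into the ring, was at 41.9 [66.3], 54.5 and 54.8 [64.9] in erythroid cells and at 0.181 to 0.229 in other cells. *Urod* and *Cpox*, which act between them, were at 8.75 and 6.73, and 2.82 and 1.74 in niacin replicates 1 and 2. In other cells of these libraries they lay between 0.219 and 0.322. *Alad*, *Uros* and *Ppox* had 2, 1 and 6 UMIs in all erythroid cells and were not called.

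Iron genes followed, with 6 of 14 called higher and none lower, or 2 higher and 7 lower with globins kept in the total. *Slc25a37*, the mitochondrial iron importer mitoferrin, was at 62.8 [99.4], 61.8 and 49.1 [58.0] in erythroid cells, against 0.618 to 0.674 in other cells. *Glrx5*, a glutaredoxin of iron-sulfur cluster assembly, was at 16.3 [25.8], 46.6 and 39.8 [47.8]. The ferritin light chain gene *Ftl1* was at 72.1 [110.5], 232 and 183 [214], and *Fth1*, the heavy chain, at 58.2 [92.0], 149 and 123 [146]. Ferritin also had a sizable level in other cells, 15.7 to 17.5 for *Ftl1* and 23.6 to 40.4 for *Fth1*, and with globins kept in the total their log2 differences were -0.45 and -1.66. *Tfrc*, the transferrin receptor, had only 16 UMIs in all erythroid cells, yet its level of 3.39 in niacin replicate 1 exceeded that of other cells, 0.119. The iron exporter gene *Slc40a1* had 2 UMIs, both from the mixed niacin replicate 2 cell, and *Slc11a2*, *Flvcr1* and *Steap3* had none.

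Of the 18 genes of the red cell membrane and its skeleton, 14 had enough UMIs to be tested, and 11 of these were higher. *Slc4a1*, the band 3 anion exchanger, was at 34.9 [55.2], 25.4 and 18.2 [21.9], and *Epb41*, protein 4.1, at 95.4 [144], 78.8 and 64.8 [76.0]. The vehicle interval of *Slc4a1* overlapped that of niacin replicate 1 with the mixed member (19.5 to 57.6 against 20.4 to 31.2) and narrowly without it (30.9 to 91.1). Without the mixed members it lay above that of niacin replicate 2 (17.2 to 27.6). The vehicle interval of *Epb41* overlapped that of niacin replicate 1 with the mixed member (68.5 to 129 against 69.8 to 88.6). Without the mixed members it (102 to 196) lay above those of niacin replicate 1 and niacin replicate 2 (66.9 to 86.0).

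**Figure D3:**
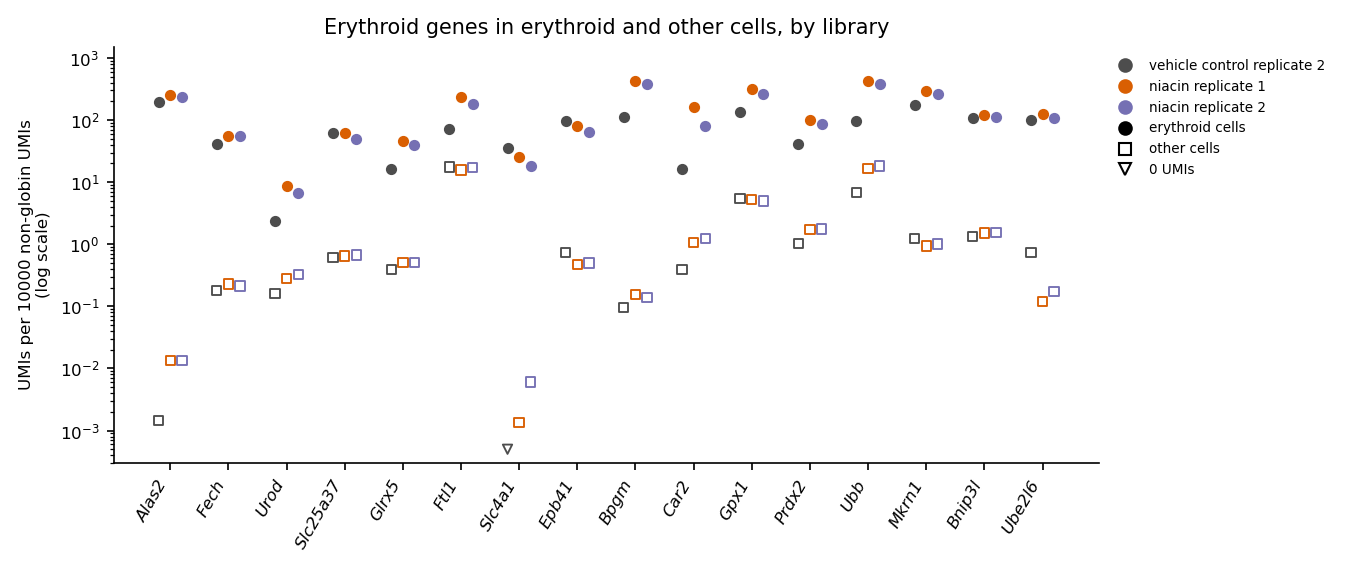
Level of 16 genes (y axis, UMIs per 10000 non-globin UMIs, log scale) in erythroid cells (filled circles) and other cells (open squares) of each library, with triangles at the base for 0 UMIs. In every library with UMIs in both groups, the erythroid level of each gene was above that of other cells, per non-globin UMI. *Alas2* was at 195 to 252 against 0.00143 to 0.0134.

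Transcription factors of the erythroid program were scarce. Of 12 listed regulators, 9 were tested and 2 were called higher: *Lmo2*, at 4.65 [7.36], 9.88 and 7.22 [8.41], and *Hemgn*, with 8 UMIs. With globins kept in the total none was higher and 6 were lower, where 8844 of all 11532 tested genes were lower. *Lmo2* was at 1.06 to 1.58 in other cells. *Gata1*, *Klf1*, *Gfi1b*, *Bcl11a* and *Ldb1* had no UMI in erythroid cells. None of the 11 tested genes of stem cells, early erythroid cells and cell division was called in either direction by edgeR, at an adjusted or unadjusted p under 0.05, while DESeq2 called 1, *Mki67*, higher. *Kit*, *Epor* and *Gata2*, which mark erythroid precursors, had no UMI, and *Mki67*, a gene of dividing cells, had 5. The 0 UMIs of a gene allow a level of up to 0.376, so these factors were not detectable at this depth.

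Of the red cell enzymes, *Bpgm* was among the most abundant transcripts. *Bpgm*, whose product makes the 2,3-bisphosphoglycerate that lowers oxygen affinity of hemoglobin, was at 114 [180], 419 and 377 [448] in erythroid cells and at 0.0961 to 0.154 in other cells. *Car2*, carbonic anhydrase 2, was at 16.3 [25.8], 165 and 79.7 [96.2]. *Blvrb*, biliverdin reductase B, was at 14.0 [22.1], 55.3 and 39.4 [47.5]. These 3 were the only ones called of 5 tested in this list, all higher, while *Hk1*, *Pklr* and *Adora2b* had no erythroid UMI and *Car1* had 1. With globins kept in the total, 3 were higher and 1 lower.

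Redox enzymes showed the same direction, with 4 of 8 called higher and none lower, or 4 higher and 2 lower with globins kept in the total. *Gpx1*, a glutathione peroxidase, was at 133 [206], 321 and 263 [315] against 4.98 to 5.43 in other cells. *Prdx2*, the main peroxiredoxin of red cells, was at 41.9 [66.3], 98.8 and 87.9 [106], and *Cat*, catalase, at 20.9 [33.1], 18.3 and 14.2 [16.5]. *Gclm*, the modifier subunit of the first enzyme of glutathione synthesis, was at 9.31 [14.7], 42.3 and 29.9 [36.0].

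Many genes of protein and organelle clearance in reticulocytes were called. Of 20 tested, 15 were higher and 1 lower, or 10 higher and 3 lower with globins kept in the total. *Ubb* was at 97.7 [151], 433 and 379 [453] in erythroid cells, against 6.76 to 18.2 in other cells. *Mkrn1*, a ubiquitin ligase gene, was at 175 [276], 295 and 259 [309], and *Ube2o*, which encodes a ubiquitin-conjugating enzyme that remodels the reticulocyte proteome, had 39.2 and 35.4 in the niacin libraries against 0.111 and 0.121. *Bnip3l*, a receptor for the removal of mitochondria, was at 107 [169], 121 and 114 [136], with 1.34 to 1.53 in other cells.

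Among genes known to be induced by interferon, which were grouped after their values were seen and tested as no list of their own, some were high and some low. *Isg20* and *Ube2l6* belong to the clearance list above and are already counted among its 15 higher genes. *Isg20* was at 18.6 [29.5], 67.7 and 53.3 [63.4], *Isg15* at 9.31 [14.7], 80.7 and 43.6 [52.6], *Rsad2* at 97.7 [155], 75.9 and 45.8 [54.4] and *Ube2l6*, the conjugating enzyme for ISG15, at 100 [158], 127 and 107 [123]. *Ifi27l2a* was called lower, with 0 and 0.249 in the erythroid cells of the niacin libraries against 2.19 and 3.53 in other cells. In other cells *Isg15* and *Rsad2* were highest in the vehicle library, at 4.23 and 2.15, and lay between 0.0494 and 0.509 in the niacin libraries. After thinning to 500 UMIs, *Rsad2* was detected in 30 of 36 and 29 of 37 members of the niacin libraries, against 3 of 1373 and 7 of 1555 other cells. In the 4 vehicle members it was detected in 3, and *Isg15* in none.

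**Figure D4:**
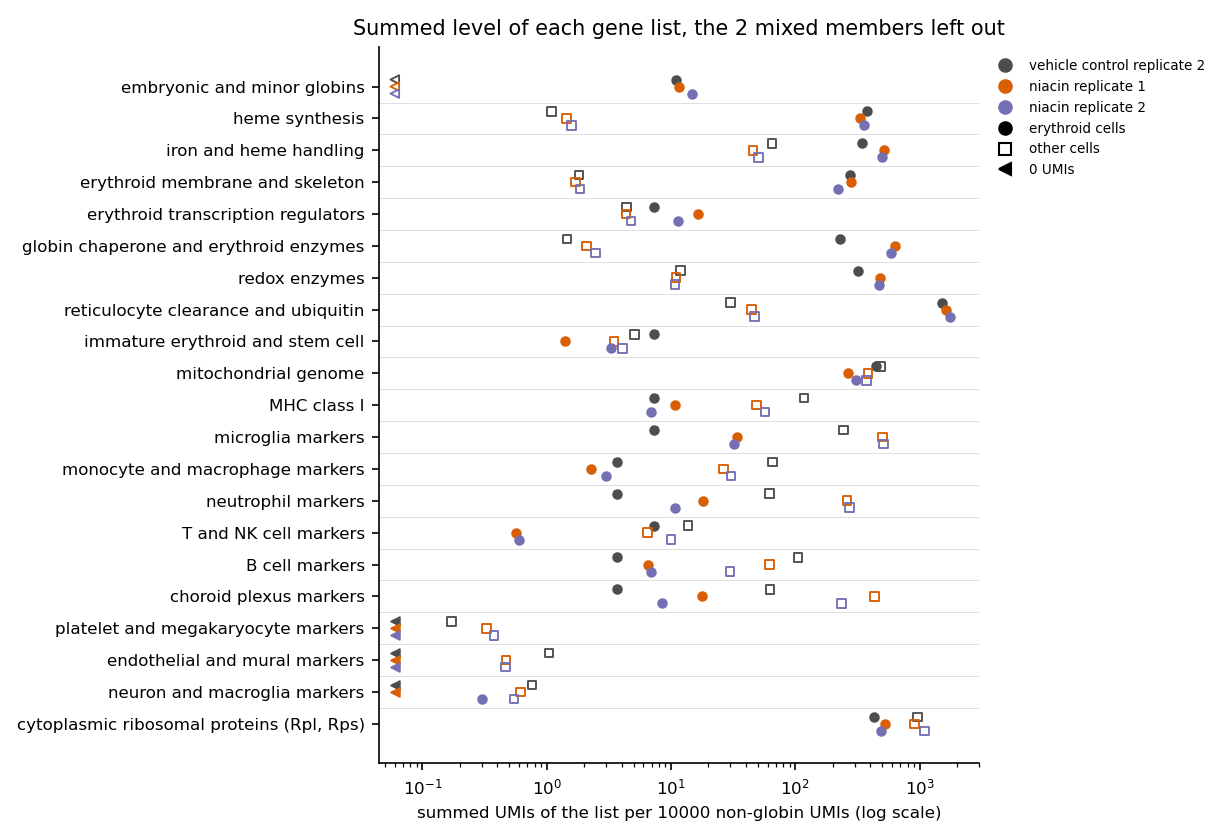
Summed level of each gene list (x axis, UMIs per 10000 non-globin UMIs, log scale) in erythroid cells without the 2 mixed members (filled circles) and in other cells (open squares), by library, with triangles at the left for 0 UMIs. Heme synthesis summed to 329 to 379 in erythroid cells and 1.09 to 1.59 in other cells, and microglia markers to 7.36 to 33.9 and 243 to 513.

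The 13 protein-coding genes of the mitochondrial genome summed to a level of 563 [442], 264 and 266 [309] in erythroid cells, against 485, 384 and 374 in other cells, so the vehicle sum was above that of other cells with the mixed member and below it without. In the fit of the niacin libraries 7 were called lower, 5 were not called and only *mt-Co1* was called higher, which held under TMM, DESeq2 size factors and DESeq2 (5 lower each) but not with globins kept in the total, where all 13 were lower. *mt-Nd2*, a subunit gene of complex I, was at 1.13 and 1.99 in the erythroid cells of the niacin libraries, against 31.0 and 28.0 in other cells. *mt-Nd1* was at 2.82 and 1.74 against 24.6 and 24.4, and *mt-Nd3* had no UMI in the niacin members. *mt-Co1*, a core subunit gene of cytochrome c oxidase, was at 134 and 145 against 55.4 and 55.5.

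As a share of mitochondrial UMIs, *mt-Co1* made up 50.7% (exact interval 47.4 to 53.9) and 54.5% (51.4 to 57.5) in the erythroid cells of niacin replicates 1 and 2, and 14.4% and 14.8% in their other cells. The vehicle value was 26.0% (20.6 to 32.0) of 242 mitochondrial UMIs with the mixed cell and 40.0% (31.2 to 49.3) of 120 without it, against 21.3% in other cells.

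**Figure D5:**
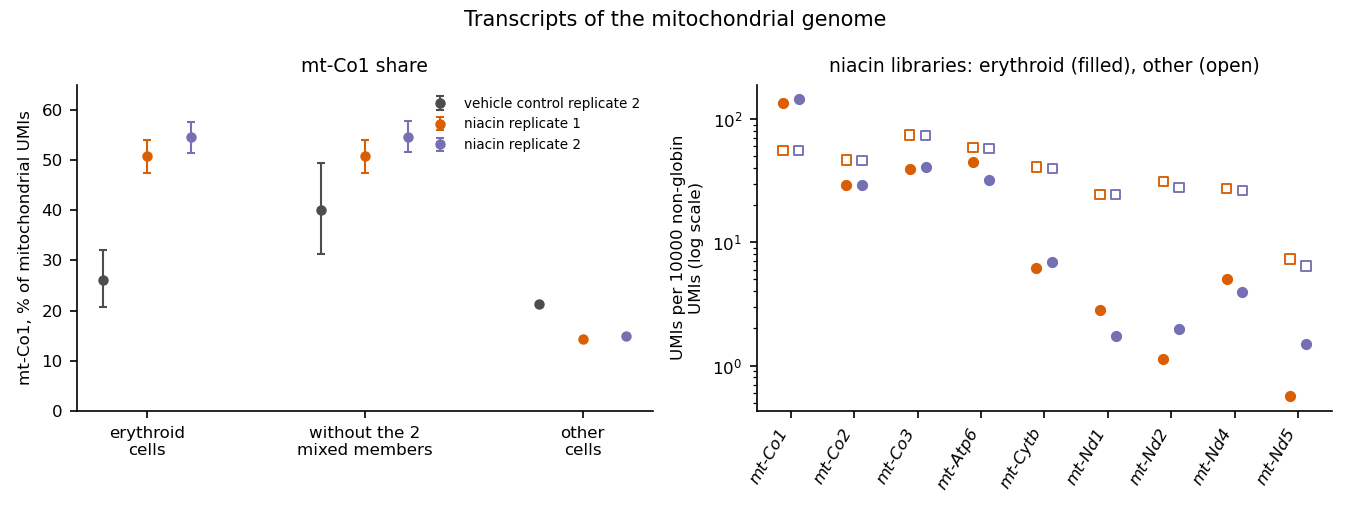
Left, *mt-Co1* as a percentage of mitochondrial UMIs with exact 95% binomial intervals, by library, in erythroid cells, erythroid cells without the 2 mixed members and other cells. Right, level of 9 mitochondrial genes (log scale) in the niacin libraries, where *mt-Co1* alone was higher in erythroid cells per non-globin UMI (134 and 145 against 55.4 and 55.5) but not per total UMI.

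Ribosomal protein genes were also lower in sum. They summed to a level of 356, 524 and 474 in erythroid cells, against 958, 911 and 1094 in other cells. Of 79 tested, 34 were called lower, 1 higher and 44 were not called. With TMM 10 were called lower and with DESeq2 size factors 7, while DESeq2 called 30 lower and 2 higher. The 1 gene called higher in the main fit was *Rpl41*, at 57.6 and 54.1 in the niacin libraries against 22.7 and 23.1. Without the 2 mixed members 53 were called lower.

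MHC class I transcripts were low in erythroid cells, with 4 of 10 tested genes called lower and none higher, or 2 lower with TMM or DESeq2 size factors. *B2m*, the shared light chain, was at 2.33 [0], 3.39 and 3.99 [2.10], against 44.8, 16.2 and 18.7 in other cells. *H2-D1* and *H2-K1* were at 3.95 and 3.99 [2.70], and at 0.847 and 1.49 [0.901], in the niacin members, against 12.8 and 14.8, and 10.98 and 13.13, in other cells. *H2-Q7* had no UMI.

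Markers of other cell types were present at low levels. By list, 11 of 12 microglia (9 with DESeq2 size factors, 6 with DESeq2), 2 of 8 monocyte and macrophage, 7 of 10 neutrophil, 2 of 10 B cell and 2 of 10 choroid plexus markers tested were called lower and none higher. Of 10 T and NK cell markers none was called by edgeR, where 3 were lower at an unadjusted p under 0.05, or by DESeq2. The 12 microglia markers summed to 200, 33.9 and 149 in erythroid cells and to 7.36, 33.9 and 31.9 without the 2 mixed members, against 243, 502 and 513 in other cells. *Malat1*, an abundant nuclear RNA, fell from 251 to 11.1 in the vehicle members and from 91.4 to 9.01 in the niacin replicate 2 members when the mixed cells were left out. In niacin replicate 1, which had no mixed member, *Malat1* was at 10.4, against 458 in other cells. Neutrophil markers summed to 2.33, 18.1 and 9.46 in erythroid cells against 61.9, 261 and 273 in other cells, and choroid plexus markers to 2.33, 17.8 and 7.47 against 62.7, 433 and 236. The choroid plexus gene *Ttr* was at 16.1 and 6.23 in the niacin members and at 396 and 216 in other cells. No platelet or endothelial marker of 10 each had a UMI in erythroid cells, and 1 of 10 neuron and macroglia markers had 1. Whether free RNA supplied the remaining marker UMIs was not tested. *Prkcd*, the gene of the study, had 4 UMIs in the 78 erythroid cells, 3 of them in the 2 mixed members.

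The 4 vehicle members differed from the niacin members at several genes, as values without a test. *Ubb* was at 97.7 (Poisson interval 70.4 to 132) in vehicle members, against 433 (411 to 455) and 379 (360 to 398) in niacin replicates 1 and 2. *Bpgm* was at 114 (84.4 to 151) against 419 and 377, and *Car2* at 16.3 (6.55 to 33.6) against 165 and 79.7. Without the mixed members the vehicle levels were 151, 180 and 25.8 and those of niacin replicate 2 453, 448 and 96.2. *Gm42418* and *Fam46c*, an RNA polyadenylation enzyme gene expressed in maturing red cells, went the other way. *Gm42418* was at 933 (844 to 1029) against 384 and 373, and *Fam46c* at 189 (150 to 234) against 84.7 and 88.4, or 1373 and 295 in the vehicle members without the mixed one. *Gm42418* was also highest in other cells of the vehicle library, 284 against 78.4 and 77.2.

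Cell by cell, without the mixed member, the 3 vehicle cells overlapped the niacin cells at *Ubb*, *Bpgm* and *Car2* and lay above most of them at *Fam46c* and *Gm42418*. *Ubb* lay between 130 and 210 in the vehicle cells, and ran from 0 to 862 with a median of 433 in niacin replicate 1 and from 75.2 to 697 with a median of 481 in niacin replicate 2. *Bpgm* was at 170 to 198, where niacin cells ran from 197 to 862 and from 143 to 868 with medians of 417 and 449. *Car2* was at 0 to 56.8, where niacin cells ran from 0 to 541 and from 0 to 399. *Gm42418* was at 1144 to 1660, above every cell of niacin replicate 1 (highest 856) and within the range of niacin replicate 2 (145 to 2727). *Fam46c* was at 219 to 365, and only its lowest vehicle value lay under the highest niacin value of 244. *Alas2* overlapped fully, at 261 to 495 in vehicle cells and 102 to 623 in niacin cells.

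The niacin libraries were close to each other at most genes but not at all. *Alas2* and *Mkrn1* were at 252 and 237, and 295 and 259, in niacin replicates 1 and 2. *Car2* was at 165 (152 to 179) and 79.7 (71.2 to 88.9) and *Isg15* at 80.7 and 43.6. Without the mixed member the niacin replicate 2 values were 96.2 for *Car2* and 52.6 for *Isg15*.

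Erythroid cells also varied among themselves beyond counting error. Over the 76 members, *Gpx1* ran from 0 to 685, with an SD of 174 where counting alone gives 60.8, and *Car2* from 0 to 541, with an SD of 125 against 38.7. *Alas2* ran from 102 to 623, with an SD of 102 against 55.9, and *Ube2l6* from 46.3 to 260, with an SD of 55.4 against 38.6. *Alas2*, *Bpgm* and *Mkrn1* had UMIs in all 76 cells and *Car2* in 63.

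Cells with more non-globin RNA had more detected genes (Spearman rho 0.93) and more globin UMIs (0.55). Their *Alas2* level was lower (-0.47), and *Gpx1* and *Alas2* were opposed (-0.45). These are descriptions across 76 cells of 3 pools, which share libraries and a common divisor per cell.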

How the data were processed

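The authors made the libraries with Chromium 3′ v3.1 kits and, per the labels, processed them with Cell Ranger 3.1 on mm10. The deposited files hold raw UMI counts per gene and barcode for barcodes called as cells, without normalization, 8301228 to 10359526 UMIs per library.

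A minimum of 200 genes and a maximum of 20% mitochondrial UMIs were set for each cell, and a barcode also present in another library was dropped unless it had at least 5 times the UMIs of its copy. Doublets were not removed. Members and gene lists were chosen with earlier results of these data known.

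Counts summed per library and class were fitted with edgeR 4.0.16 (quasi-likelihood test with a term for library, genes kept by filterByExpr, p-values adjusted by Benjamini-Hochberg). The plan was a fit of all 3 libraries with TMM, and no fit where fewer than 3 libraries held 5 erythroid cells. The vehicle library held 4. The plan was not followed: a fit of the 2 niacin libraries with library totals was chosen after seeing the data. Library totals replaced the planned TMM after the calls with TMM on these data had been seen. In a first simulation both scalings shifted fold changes to a similar degree. In a second, redrawn so that the changed genes altered the totals less, TMM shifted them more than library totals did. That redraw favored library totals by its setting, while the real erythroid RNA was concentrated in few genes. The simulation therefore cannot decide between the scalings for these data. The numbers of calls with TMM stand beside the main ones. The fit has 4 sums and 1 residual degree of freedom, spread measured between 2 pools. DESeq2 1.42.0 was an alternative, among 15 planned and 7 added after seeing the data.

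Levels have exact Poisson intervals and shares exact binomial intervals (95%), which do not cover differences between pools, and 0 UMIs were taken to allow 3. For shares of cells with a UMI, each cell was thinned to 500 non-globin UMIs. Named genes are listed genes with at least 20 UMIs in erythroid cells, all listed heme enzymes and regulators, the 12 genes with the largest changes each way among abundant called genes, and *Prkcd*. Listed genes under that minimum, and *Gm42418*, *Oaz1*, *Sec61g*, *Rpl41*, *Isg15*, *Rsad2* and *Malat1*, were named after their values were seen. Loci are from GENCODE on GRCm38, and promoters from RefSeq (GRCm38.p6). *Slc4a1* and *Fech* had no promoter entry. Some genes are not reported here.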

Additional observations from a re-analysis of the deposited data

Results flagged for a closer look

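Globin-rich barcodes outside the erythroid cells carried *Alas2*. In barcodes with at least 20% globin and 100 or more but fewer than 200 detected genes, copies left out, *Alas2* was at 405.8 UMIs per 10000 non-globin UMIs in niacin replicate 1 (45 barcodes) and 423.3 in niacin replicate 2 (53 barcodes). The erythroid cells of these libraries were at 252 and 237 (277 in niacin replicate 2 without its mixed member), and other cells at 0.0134 and 0.0133. The difference between these barcodes and the erythroid cells was not tested. *Bpgm* was at 408 and 510.0 in these barcodes and *Gpx1* at 91.5 and 89.2. In the 4 such vehicle barcodes *Alas2* was at 139 from 20 UMIs.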

How the results depend on the processing

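No paired analysis was possible because niacin and vehicle share only replicate number 2 and their difference was not tested. Within libraries, the pairing of erythroid and other sums entered as a block, and with no replicate block 348 genes were higher and 1355 lower, against 225 and 246. The count of higher genes was 348 with DESeq2, 78 with globins kept in the total and 57 with every shared barcode dropped, and 77 to 145 when a niacin library was left out and the vehicle library added. The count of lower genes was 108 with TMM, 94 with DESeq2 size factors, 154 with DESeq2, 8844 with globins kept in the total, 71 at a globin share of at least 10%, 0 with every shared barcode dropped, 767 with at least 100 genes, 844 without the 2 mixed members, 1287 with at least 100 genes and all 3 libraries, and 5 to 13 when a niacin library was left out. With the vehicle library added, 238 were higher and 205 lower. Counts under the other alternatives lay within 1.5 times. Apart from the divisors and sample numbers named, the cause was not tested. The erythroid cells numbered 6 with every shared barcode dropped and 180 with at least 100 genes, which put their share of niacin replicate 1 at 0.101% and 5.63%, and that of niacin replicate 2 at 0.214% and 5.46%. Dropping shared barcodes gave an alpha share of 39.7% and an *Hbb-bt* share of 18.6%, and at least 100 genes an *Hbb-bt* share of 20.2%. With globins kept in the total, the log2 difference turned negative for *Alad* (-3.56), *Cenpa* (-3.54), *Cpox* (-0.78), *Fth1* (-1.66), *Ftl1* (-0.45), *Lmo2* (-1.59), *Nfe2* (-2.99), *Ppox* (-2.34), *Tspan33* (-0.43), *Ubac1* (-0.24), *Uros* (-3.88), *Zfpm1* (-2.46) and *mt-Co1* (-2.77), since a larger divisor lowers every erythroid value. With shared barcodes dropped, *Tfrc* (-7.10), *Tmod1* (-7.33) and *Urod* (-9.05) turned negative because no erythroid UMI was left, and these fitted values are no bound. Depth limits every gene of few UMIs, since the erythroid cells hold 79873 non-globin UMIs in all and the vehicle members 4297.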
